A study of Homo sapiens with 16 samples.

Results

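The proteasome genes were examined in RNA sequencing data of MDA-MB-231 and MDA-MB-468, a pair of established human breast cancer cell lines labelled ER negative. A gene was included when its symbol was PSMA, PSMB, PSMC, PSMD or PSME followed by a number, or was PSMF1 or ADRM1. Of 45 such symbols in the annotation, 42 were found among the 18332 genes of the table, while PSMA8, PSMB11 and PSMB3 were not analysed here. Cells of either line were kept for 48 hours in medium with 5 mM glucose, called low glucose here and serving as the control, or with 25 mM, called high glucose and standing for hyperglycemia. There were 4 replicates in each of the 4 groups, which makes 16 libraries. Per the study's methods, all cells were first conditioned in low glucose and the treatment medium held no serum, a condition that both groups share. The labels name no group with an osmotic control, and they place the cells in flasks without saying whether each replicate was a separate culture, so p-values measure the spread between these samples, which may be technical. Each cell line is a single line, so a difference between the lines stands for these lines only. Per the study's methods, MDA-MB-231 was routinely grown in DMEM and MDA-MB-468 in RPMI. The line and this medium therefore cannot be told apart. In bulk RNA, a change in every cell and a change in the number of cells of some state cannot be told apart.

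The proteasome is the protease that degrades most short-lived and damaged proteins of the cytosol and nucleus. Its barrel-shaped core, the 20S particle, has outer rings of alpha subunits, which gate the entry, and inner rings of beta subunits, of which PSMB5, PSMB6 and PSMB7 carry the catalytic sites. Under interferon signaling, PSMB8, PSMB9 and PSMB10 take the places of these catalytic subunits and form the immunoproteasome, which favors peptides for MHC class I presentation. The 19S regulatory particle caps the core. Its base holds the ATPases PSMC1 to PSMC6, which unfold substrates, with scaffold subunits and ubiquitin receptors, and its lid removes ubiquitin. Other activators (PSME1 to PSME4) and the inhibitor-like PSMF1 bind the core in place of the 19S cap. NFE2L1 is a transcription factor known to raise proteasome genes together when proteasome capacity falls short.

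Promoter sequences are shown for genes on which the results below turn: PSMD3 and PSMA1, which had the largest rises in MDA-MB-468, and PSMB9 with TAP1, neighbors with facing promoters of which TAP1 fell there and PSMB9 did not pass the test. The sequences are the 250 bases before the start site in the RefSeq table (build GRCh38.p14), 5′ to 3′ on the strand of the gene, and capitals mark matches to a motif. PSMD3 is at chr17:39980557-39980806 (plus strand), PSMA1 at chr11:14520387-14520636 (minus strand), PSMB9 at chr6:32853942-32854191 (plus strand) and TAP1, at the first of its 2 listed start sites, at chr6:32853705-32853954 (minus strand).
PSMD3: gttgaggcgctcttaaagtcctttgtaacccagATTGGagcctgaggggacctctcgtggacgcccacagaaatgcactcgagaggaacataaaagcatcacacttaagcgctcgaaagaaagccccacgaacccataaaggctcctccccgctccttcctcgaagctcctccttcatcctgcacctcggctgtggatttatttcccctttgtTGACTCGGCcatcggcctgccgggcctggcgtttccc
PSMA1: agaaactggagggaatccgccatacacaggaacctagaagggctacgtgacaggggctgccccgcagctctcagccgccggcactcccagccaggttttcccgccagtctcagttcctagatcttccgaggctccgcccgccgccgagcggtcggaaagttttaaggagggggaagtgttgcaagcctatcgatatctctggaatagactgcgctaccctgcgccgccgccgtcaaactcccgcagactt
PSMB9: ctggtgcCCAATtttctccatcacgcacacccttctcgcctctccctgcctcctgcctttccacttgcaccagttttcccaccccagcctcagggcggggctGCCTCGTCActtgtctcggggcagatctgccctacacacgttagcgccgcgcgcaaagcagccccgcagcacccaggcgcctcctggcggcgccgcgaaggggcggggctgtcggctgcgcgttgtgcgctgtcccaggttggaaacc
TAP1: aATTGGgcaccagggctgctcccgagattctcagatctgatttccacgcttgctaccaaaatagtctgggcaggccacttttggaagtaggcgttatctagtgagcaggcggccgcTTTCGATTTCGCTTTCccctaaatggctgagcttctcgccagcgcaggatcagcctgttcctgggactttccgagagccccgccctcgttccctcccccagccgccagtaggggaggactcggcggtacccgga

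The motifs were searched on both strands: TGACNNNGC (the core of the antioxidant response element, bound by NFE2L1 and NFE2L2), CCAAT (the CCAAT box) and an interferon motif (paired GAAA with a short gap, bound by interferon regulatory factors). The capitals in PSMD3 mark a reverse CCAAT and a TGACNNNGC. In PSMA1 none of these letters matched in this window. The capitals in PSMB9 mark a CCAAT and a reverse TGACNNNGC, and those in TAP1 a reverse CCAAT and 2 overlapping reverse matches of the interferon motif. The TAP1 and PSMB9 start sites are 487 bases apart, and the windows share 13 bases, which hold the same CCAAT. Of the proteasome genes, 37 had an entry in the table, while PSMA7, PSMB1, PSMB6, PSMB7 and PSMD4 had none. TGACNNNGC was found in 11 of the 37 (29.7%), against 13.2% of all 27305 genes of the table, where a gene counted if any of its listed windows matched. It was found in 2 of the 10 with an entry that rose in MDA-MB-468 and in 3 of the 5 that fell there. CCAAT was found in 17 of the 37 (45.9%, against 10102 of the 27305), which included 7 of those 10 and 0 of those 5. The interferon motif was found in 4 of the 37 (10.8%, against 3.71%), and in 0 of the members that rose or fell. These matches describe the sequence and are not evidence of binding.

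The libraries held between 14094597 and 24425916 reads, so a value of 3 reads, the floor used here, was between 0.123 and 0.213 CPM (reads scaled to a common library total). The proteasome genes lay far above this floor, with PSMB9 the lowest at 110 to 167 normalized reads in MDA-MB-231. Their reads made up 0.529% ± 0.00677 of a library (SD, n = 4) at 5 mM and 0.534% ± 0.00518 at 25 mM in MDA-MB-231, and 0.514% ± 0.00385 and 0.518% ± 0.00705 in MDA-MB-468. Defining markers separated the lines: CDH1 (E-cadherin) had means of 2007 to 2087 normalized reads in MDA-MB-468 and 5.51 to 7.76 in MDA-MB-231, while VIM (vimentin) had 21.5 to 26.1 and 90321 to 96228. ESR1, the estrogen receptor, had group means of 1.31 to 1.43 in MDA-MB-231 and 43.4 to 57.9 in MDA-MB-468. Some markers moved with glucose. In MDA-MB-468 the summed level of 5 of 5 epithelial markers was 81251 to 86362 in low and 90433 to 97802 in high glucose. The sum of the 2 leukocyte markers found of 4 was 87.4 to 121.8 and 178.9 to 237.7 there, through CD14, while PTPRC, which defines leukocytes, had 12.3 normalized reads or fewer. In MDA-MB-231 the sum of 3 of 3 mesenchymal markers was 129514 to 136803 in low and 120145 to 121201 in high glucose. The epithelial sum was 16398 to 18030 and 18019 to 18807 in MDA-MB-231, and the mesenchymal sum 736 to 809 and 640 to 718 in MDA-MB-468. Of the fibroblast markers, DCN had at most 1.05 normalized reads in any library, and the sum of 3 of 3 was 236 to 267 and 275 to 338 in MDA-MB-468 and 378 to 429 and 327 to 437 in MDA-MB-231. The part of these shifts in the results below was not tested.

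The first question was which proteasome genes responded to glucose within a line. For MDA-MB-231, 3 of the 42 genes fell (PSMD2, PSMD1 and PSME4), each by 0.13 on the log2 scale, and none rose. In MDA-MB-468, 12 rose, led by the lid subunit PSMD3, the alpha subunit PSMA1 and the catalytic subunit PSMB6, and 5 fell by 0.16 or less, namely PSME4, PSMD5, PSMB2, PSMD11 and PSMD12. The remaining 39 and 25 genes did not pass the test. Values are normalized reads, the tests are limma on log2(normalized reads + 1), and a call is a Benjamini-Hochberg adjusted p under 0.05 over all genes tested. In MDA-MB-231, limma called 5.71% of all genes as higher and 9.37% as lower, beside 0 and 3 of the 42 proteasome genes. At an unadjusted p under 0.05, 1 of them was higher and 3 were lower, against 11.8% and 15.2% of all genes. By edgeR and DESeq2 on the recovered reads, 0 were also higher and 3 lower. Over all genes, edgeR called 6.11% and 8.96%, and DESeq2 5.46% and 8.55%. In MDA-MB-468 the background was 24.9% higher and 22.7% lower, against 28.6% and 11.9% of the proteasome genes. No overlap between the libraries of the glucose groups was seen for 3 of the 42 genes in MDA-MB-231, against 18.7% of all genes tested, and for 15 of them (against 42.5%) in MDA-MB-468.

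The responses of the proteasome genes were small. Their median absolute log2 fold change was 0.04 (MDA-MB-231) and 0.08 (MDA-MB-468), while over all genes tested it was 0.10 and 0.21. The genes tested reach down to 0.5 CPM, below all proteasome genes, and no comparison was matched for level. The part of abundance in this contrast was not tested. The median log2 fold change of the proteasome genes was 0.01 in both lines, against 0.00. The normalized reads summed over the 42 genes were 91792 ± 1274 (SD, n = 4) at 5 mM and 90993 ± 1111 at 25 mM in MDA-MB-231. In MDA-MB-468 the sums were 80860 ± 849 and 83272 ± 1727. Summed by role in MDA-MB-468, the constitutive catalytic subunits changed by 7.46%, the lid by 6.95%, base ATPases by 6.10% and the alpha ring by 5.64%. The immunoproteasome subunits changed by -3.96% and the other roles by -1.86% to 2.26%. In MDA-MB-231 the scaffold subunits and receptors changed by -6.36%, the other roles by -0.78% to 4.97%. These are descriptions with no test, and single genes weigh on them. In MDA-MB-468 the mean of PSMD3 went from 1316 to 2107, beside 15099 to 16149 for the lid. PSMB6 went from 920 to 1192, beside 4043 to 4345 for the catalytic subunits. In MDA-MB-231 PSMD2 went from 11935 to 10871, beside 19955 to 18686. In MDA-MB-231, the 95% intervals of the 39 genes that were not called reached from -0.17 to 0.47, where the upper bound is that of PSMB9, the least abundant. In MDA-MB-468 those of the 25 not called reached from -0.34 to 0.19, with PSMB10 at the lower bound.

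**Figure D1:**
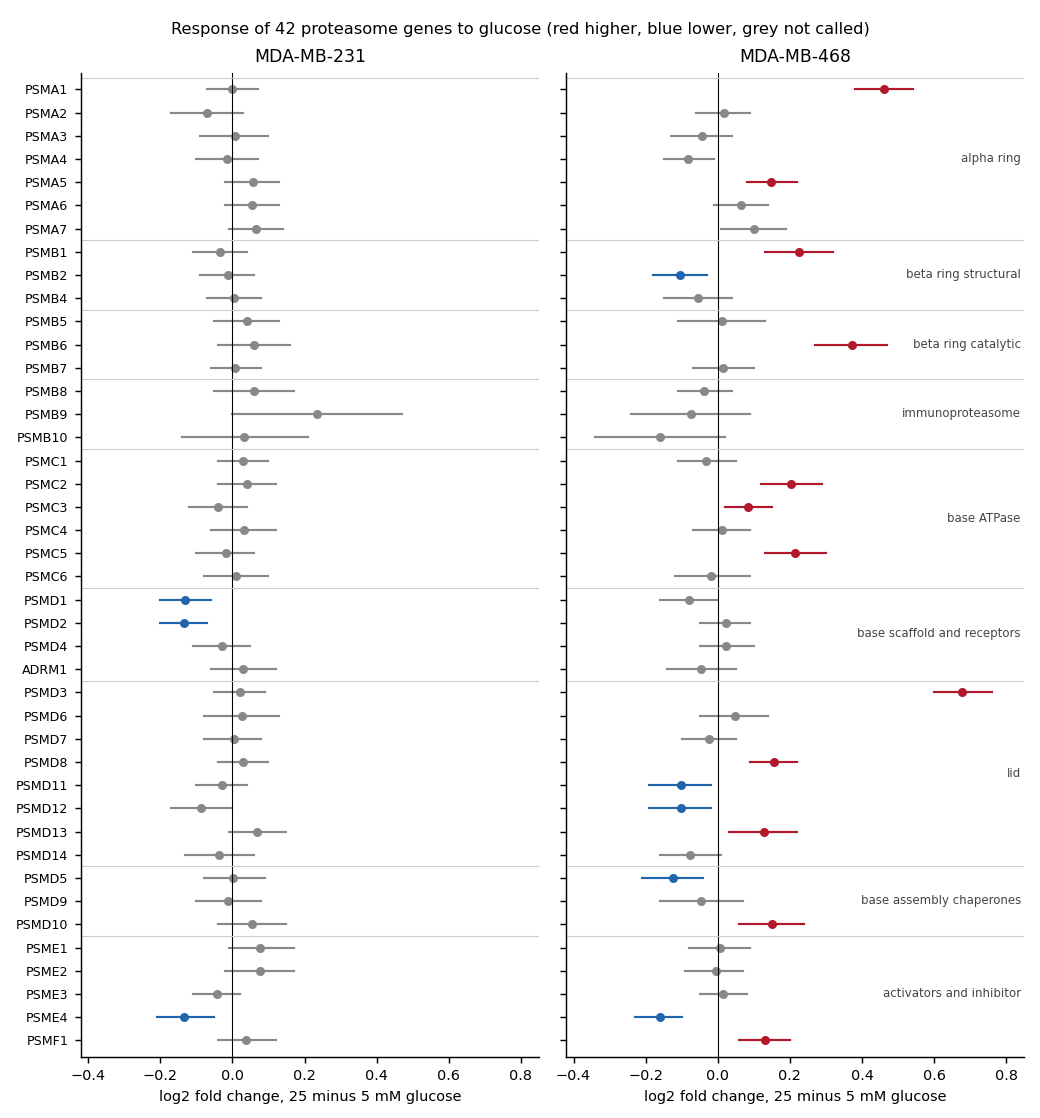
Log2 fold change (25 minus 5 mM glucose, x axis, log2 scale) of each of the 42 proteasome genes in MDA-MB-231 (left) and MDA-MB-468 (right), as points with 95% intervals from limma on n = 4 against 4 libraries, grouped by role. Red points rose, blue points fell and grey points did not pass the threshold, and the red points of PSMD3 (0.68), PSMA1 (0.46) and PSMB6 (0.37) stand farthest from 0.

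The calls differed in how well they held. Of the 17 calls in MDA-MB-468, 10 held in all 21 alternatives tried, namely the rises of PSMD3, PSMA1, PSMB6, PSMB1, PSMC5, PSMC2, PSMD8, PSMA5 and PSMF1 and the fall of PSME4. In MDA-MB-231, 1 of the 3 calls, the fall of PSMD2, held in all 21. The largest shift came from a correction for transcript length. Proteasome transcripts are short, with a median of 1529 nucleotides against 2997 for all genes tested in MDA-MB-468, and 31 of the 42 were shorter than the median of all genes. The members that fell in MDA-MB-468 had a median length of 4356 nucleotides, those that rose 1529. After the correction, 9 proteasome genes were higher and 14 lower in MDA-MB-468, against 24.5% and 24.2% of all genes. Their median log2 fold change moved from 0.01 to -0.06, while that of all genes was -0.01 after the correction. The 9 higher had all been called before, with PSMC3, PSMD10 and PSMD13 lost. Among the 14 lower, 4 had been called before (PSMD12 was lost), and 10 were added: ADRM1, PSMA3, PSMB10, PSMB4, PSMB8, PSMD1, PSMD14, PSMD7, PSME1 and PSME2. So the direction of the larger rises held under either scale, while the balance of rises and falls did not.

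**Figure D2:**
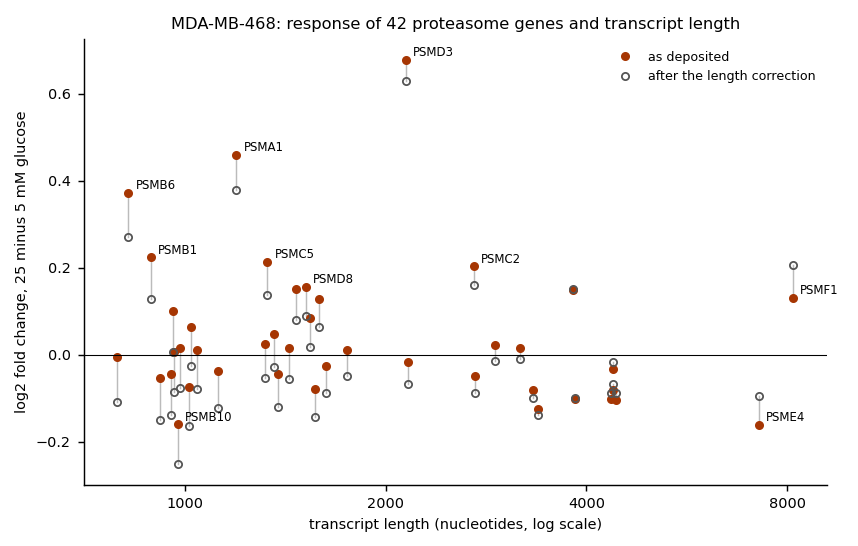
Log2 fold change in MDA-MB-468 (25 minus 5 mM glucose, y axis) of each of the 42 proteasome genes against the length of its canonical transcript (x axis, nucleotides, log scale). Filled points are the deposited values, open points the same genes after the length correction, joined by a line. PSMD3, PSMA1 and PSMB6 stay the highest (0.63, 0.38 and 0.27 after the correction).

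The second question was whether the response differed between the lines. A limma contrast of the high-minus-low difference in MDA-MB-468 minus that in MDA-MB-231 called 8 of the 42 genes with the higher response in MDA-MB-468 (PSMD3, PSMA1, PSMB6, PSMB1, PSMC5, PSMC2, PSMD2 and PSMD8) and 0 with the lower. Over all genes it called 17.0% and 13.9%. At an unadjusted p under 0.05, 10 were higher and 2 lower, against 21.4% and 19.1% of all genes. By edgeR 8 and 0 were called (against 16.9% and 13.9%) and by DESeq2 9 and 0 (against 16.7% and 12.8%). Under quantile scaling 5 were higher and 2 lower (PSMB2 and PSMD5), against 15.7% and 16.2% of all genes. The calls of PSMD3, PSMA1, PSMB6, PSMB1 and PSMC5 held in all 28 alternatives. Other genes passed only under some alternatives. PSMC3 was called with the higher response in DESeq2 (adjusted p 0.0401), with a filter of 1 CPM in 4 samples (limma adjusted p 0.0495), with a GC correction (0.0284) and after the length correction (0.0174). It was also called without high-glucose replicate 2 (limma adjusted p 0.0269) or low-glucose replicate 4 (0.00751) of MDA-MB-231 or low-glucose replicate 3 of MDA-MB-468 (0.0365). PSMD5 was called with the lower response under TMM scaling (limma adjusted p 0.0457) and quantile scaling (0.0127), with the 1 CPM filter (0.0471), and without high-glucose replicate 4 (0.0305) or low-glucose replicate 4 (0.0472) of MDA-MB-231, or high-glucose replicate 4 (0.0423) or low-glucose replicate 4 (0.0217) of MDA-MB-468. PSMB2 was called with the lower response under quantile scaling (limma adjusted p 0.0186) and without high-glucose replicate 3 of MDA-MB-468 (0.0386). With the GC correction ADRM1 was called with the lower response (-0.12, limma adjusted p 0.0356) and PSMA5 with the higher (0.15, limma adjusted p 0.0117).

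**Figure D3:**
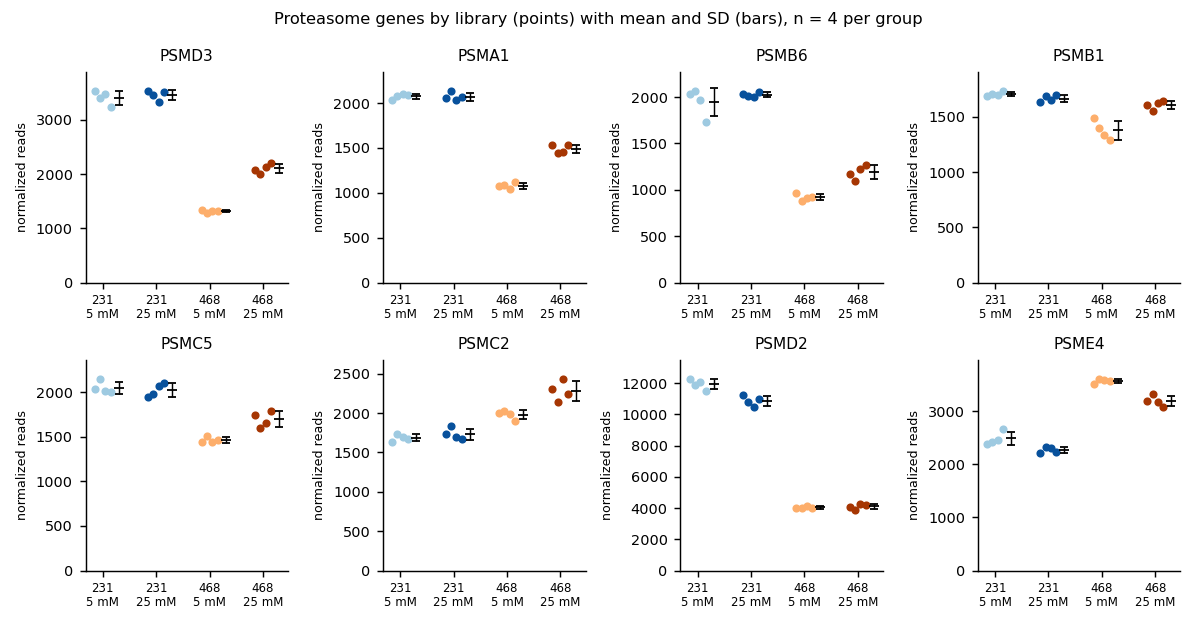
Normalized reads (y axes, linear, from 0) of 8 proteasome genes in each of the 16 libraries, as points by line and glucose level (x axes), with the mean and SD of n = 4 beside each group. In MDA-MB-468 the 4 high-glucose points of PSMD3 (2010 to 2206) lie above the 4 low-glucose points (1285 to 1333), while in MDA-MB-231 the groups overlap.

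Among the alpha subunits of the core, PSMA1 and PSMA5 rose in MDA-MB-468 and none of the 7 was called in MDA-MB-231. PSMA1 (ENSG00000129084, chromosome 11, 14526420 to 14665181 on GRCh37) had 1071, 1092, 1039 and 1119 normalized reads in low and 1529, 1439, 1451 and 1527 in high glucose in MDA-MB-468. All 4 high-glucose libraries lay above all low-glucose ones, by 37.6% on average (log2 fold change 0.46, SE 0.04, limma adjusted p 7.16e-08). For MDA-MB-231 it had 2031, 2074, 2104 and 2086 in low and 2051, 2133, 2035 and 2064 in high glucose, so the groups overlapped (log2 fold change -0.00, 95% interval -0.07 to 0.07). The response differed between the lines by 0.46 (SE 0.04, limma adjusted p 3.92e-07). Another annotated gene on the same strand (ENSG00000256206) overlaps PSMA1, so its count is uncertain to the extent that the counting split such reads. PSMA5 rose from 2504 to 2619 to between 2727 and 2907 (log2 fold change 0.15, limma adjusted p 0.0011). PSMA4 had 1886 to 2010 normalized reads in low and 1790 to 1882 in high glucose, without overlap, but did not pass the test (log2 fold change -0.08, limma adjusted p 0.0568), and it was called without low-glucose replicate 1 (0.0436) or high-glucose replicate 2 (0.0435) and under TMM (0.0451) and quantile scaling (0.0292). PSMA7 was at 0.10 (limma adjusted p 0.0577). Its limma adjusted p was 0.0129 without high-glucose replicate 2, 0.0285 without low-glucose replicate 3 and 0.0294 with the replicate block. In MDA-MB-231 PSMA7 was called as higher under quantile scaling (0.10, limma adjusted p 0.0446). For PSMA2, PSMA3 and PSMA6 the log2 fold changes in MDA-MB-468 lay between -0.04 and 0.06, and PSMA6 was called as higher with a GC correction (0.09, limma adjusted p 0.0205).

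Of the beta subunits without a catalytic site, PSMB1 rose and PSMB2 fell in MDA-MB-468, while PSMB4 was not called. PSMB1 (ENSG00000008018, chromosome 6, 170844208 to 170862395 on GRCh37) had 1486, 1398, 1336 and 1292 normalized reads in low and 1604, 1557, 1624 and 1645 in high glucose. The groups did not overlap (log2 fold change 0.22, SE 0.04, limma adjusted p 0.000407). They overlapped for the other line (log2 fold change -0.03, limma adjusted p 0.562). The responses differed by 0.26 (SE 0.05, limma adjusted p 0.000829). PSMB2 had 4243, 4093, 4071 and 4167 normalized reads in low and 3755, 3693, 4129 and 3846 in high glucose. High-glucose replicate 3 lay inside the low-glucose range, and the fall was small (log2 fold change -0.10, SE 0.03, limma adjusted p 0.0210). The PSMB2 call was lost without low-glucose replicate 1 (limma adjusted p 0.0626), high-glucose replicate 1 (0.0654) or high-glucose replicate 2 (0.0592), and with a GC correction (0.0600).

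The catalytic subunits of the constitutive core did not respond alike in MDA-MB-468: PSMB6 rose, and PSMB5 and PSMB7 did not pass the test. PSMB6, which carries the caspase-like site (ENSG00000142507, chromosome 17, 4699439 to 4701797 on GRCh37), had 964, 882, 913 and 921 normalized reads in low and 1172, 1100, 1225 and 1271 in high glucose. The high-glucose libraries were all higher, by 29.5% on average (log2 fold change 0.37, SE 0.05, limma adjusted p 7.23e-06). For MDA-MB-231 PSMB6 had 2037, 2064, 1965 and 1728 in low and 2037, 2011, 2002 and 2053 in high glucose, where low-glucose replicate 4 was the lowest and the groups overlapped (log2 fold change 0.06, limma adjusted p 0.460). The response differed between the lines by 0.31 (SE 0.07, limma adjusted p 0.00338). PSMB5, the chymotrypsin-like site, had 1606 to 1848 normalized reads in low and 1570 to 1908 in high glucose in MDA-MB-468 (log2 fold change 0.01, 95% interval -0.11 to 0.13). PSMB7, the trypsin-like site, had 1322 to 1445 and 1313 to 1446 (0.02, -0.07 to 0.10). In MDA-MB-231 PSMB5 was at 0.04 (-0.05 to 0.13) and PSMB7 at 0.01 (-0.06 to 0.08). PLD2, the measured gene after PSMB6 on chromosome 17, fell in MDA-MB-468 (log2 fold change -0.32, limma adjusted p 0.000233), and ZMYND15, the one before, was at 0.01. The genes measured on either side of PSMD3 (ORMDL3, 0.11, and MED24, 0.07) and PSMA1 (COPB1, 0.09, and CYP2R1, 0.39) were not called either.

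No catalytic subunit of the immunoproteasome was called for glucose in either line. PSMB8 (ENSG00000204264, chromosome 6, 32808494 to 32812456 on GRCh37), which replaces PSMB5, had 2193, 2085, 2157 and 2095 normalized reads in low and 2082, 1963, 2099 and 2165 in high glucose in MDA-MB-468 (log2 fold change -0.04, 95% interval -0.11 to 0.04). In MDA-MB-231 it had 802, 771, 726 and 724 in low and 798, 844, 751 and 762 in high glucose (0.06, -0.05 to 0.17). The glucose groups overlapped in both lines. PSMB9 (ENSG00000240065, chromosome 6, 32811913 to 32827628 on GRCh37), which replaces PSMB6, had 288, 284, 256 and 261 in low and 261, 232, 256 and 288 in high glucose in MDA-MB-468 (-0.07, -0.24 to 0.09). In MDA-MB-231 it had 122, 145, 110 and 133 in low and 158, 167, 125 and 150 in high glucose (0.24, 0.00 to 0.47, limma adjusted p 0.181). The groups overlapped in each line, and the difference between the lines' responses did not pass (-0.31, SE 0.14, limma adjusted p 0.113) except without high-glucose MDA-MB-231 replicate 3 (-0.40, limma adjusted p 0.0315). PSMB10, which replaces PSMB7, had 480, 384, 413 and 401 in low and 333, 344, 435 and 392 in high glucose in MDA-MB-468 (-0.16, -0.34 to 0.02, limma adjusted p 0.135). High-glucose replicate 3 stood above the other high-glucose libraries, and without it PSMB10 was called as lower (log2 fold change -0.23, limma adjusted p 0.0297). PSMB8 and PSMB10 were also called as lower after the length correction (-0.12 and -0.25) and after a GC correction (-0.10 and -0.25). PSMB8 and PSMB9 overlap on opposite strands, so their reads cannot be told apart there if the counting did not use strand, which is not given in the sources used here. On the same strand, PSMB8-AS1 overlaps PSMB9, ENSG00000261884 overlaps PSMB10 and AL132780.1 overlaps PSMB5. Reads of these pairs could be split or shared even if the counting used strand.

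In a ratio of subunits within a library, the scaling factor of the library cancels. The ratio of PSMB9 to PSMB6 reads in MDA-MB-468 was 0.297 ± 0.0190 (SD, n = 4; 0.281 to 0.322) at 5 mM and 0.217 ± 0.00863 (0.209 to 0.227) at 25 mM. All 4 high-glucose ratios were lower, by 0.45 on the log2 scale (two-sided exact permutation test, p = 0.0286, the smallest that 70 splits can give). Over the 6 ratio tests the adjusted exact p was 0.171, so the difference did not pass the correction. A single ratio at the smallest exact p could not have passed it alone. With signs flipped within replicate numbers the exact p was 0.125, the smallest that 16 flips can give. With n = 4 per group, neither of these outcomes could decide whether the ratio changed. Of the genes in this ratio, PSMB6 had one of the largest rises given above (0.37), while PSMB9 was not called (-0.07). In MDA-MB-231 the same ratio was 0.0656 ± 0.00962 and 0.0740 ± 0.00887 (exact p = 0.229). The PSMB8 to PSMB5 ratio in MDA-MB-468 was 1.22 ± 0.0592 and 1.18 ± 0.0495 (exact p = 0.314), and that of PSMB10 to PSMB7 was 0.305 ± 0.0340 and 0.270 ± 0.0287 (exact p = 0.200). Only the PSMB9 to PSMB6 ratio in MDA-MB-468 had glucose groups that did not overlap. In MDA-MB-231, PSMB8 to PSMB5 was 0.351 ± 0.0216 and 0.356 ± 0.0178 (exact p = 0.771) and PSMB10 to PSMB7 was 0.153 ± 0.0162 and 0.155 ± 0.00794 (exact p = 0.943). Every ratio was lower in the 8 MDA-MB-231 libraries than in the 8 MDA-MB-468 libraries. The ratios compare reads, not reads per length. The transcripts have 1124 and 1044 nucleotides for PSMB8 and PSMB5, 1017 and 824 for PSMB9 and PSMB6, and 977 and 984 for PSMB10 and PSMB7.

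**Figure D4:**
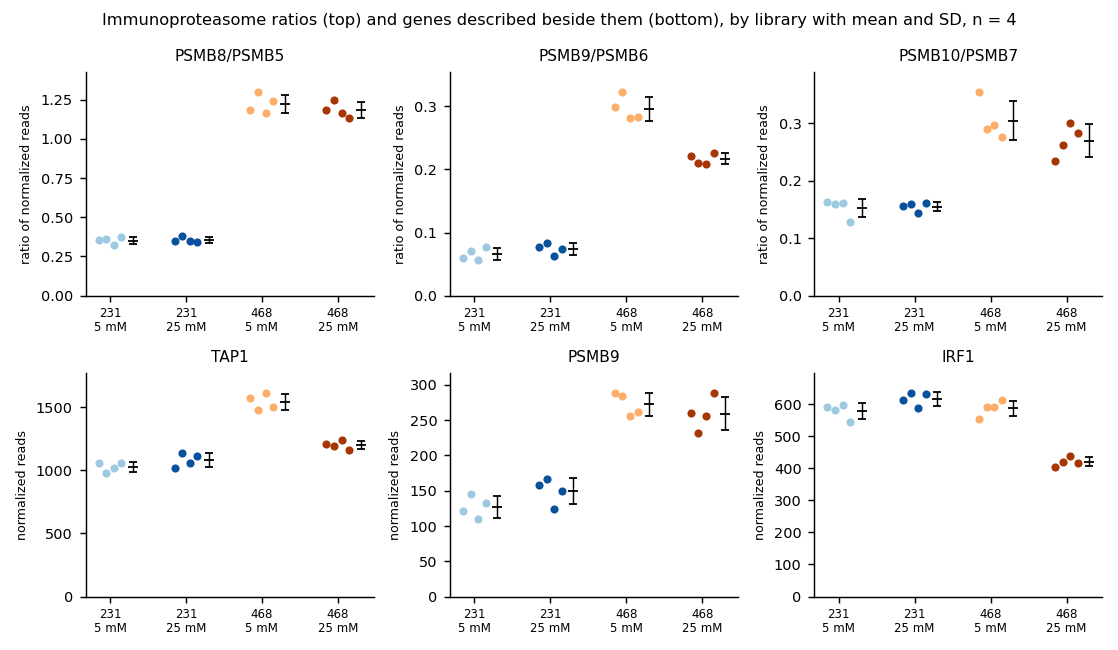
Top, ratio of the normalized reads of each immunoproteasome subunit to the subunit it replaces (y axes, linear) in the 16 libraries, by line and glucose level (x axes). Bottom, normalized reads of TAP1, PSMB9 and IRF1; points are libraries and bars give the mean and SD of n = 4. PSMB9/PSMB6, TAP1 and IRF1 are lower in all 4 high-glucose than in all 4 low-glucose MDA-MB-468 libraries, while PSMB9 itself overlaps.

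Of the 6 ATPases of the 19S base, PSMC5, PSMC2 and PSMC3 rose in MDA-MB-468 and none was called in MDA-MB-231. PSMC5 had 1436, 1509, 1444 and 1462 normalized reads in low and 1749, 1600, 1650 and 1790 in high glucose, without overlap (log2 fold change 0.21, SE 0.04, limma adjusted p 0.000340). Its response exceeded that in MDA-MB-231 by 0.23 (SE 0.05, limma adjusted p 0.00287). PSMC2 had 1998, 2031, 1985 and 1902 in low and 2309, 2136, 2432 and 2240 in high glucose (log2 fold change 0.20, SE 0.04, limma adjusted p 0.000510). Here too the groups did not overlap, but the difference between the lines (0.16, limma adjusted p 0.0322) was lost under quantile scaling (0.111) and without any of 8 libraries, with a limma adjusted p between 0.0510 and 0.0690; these were low-glucose replicates 2 and 3 and high-glucose replicates 1, 3 and 4 of MDA-MB-231, and low-glucose replicate 4 and high-glucose replicates 1 and 3 of MDA-MB-468. PSMC3 rose by 0.08 (limma adjusted p 0.0354), a call that edgeR (0.0535) and DESeq2 (0.0583) did not make, nor limma without high-glucose replicate 1 (0.0663), 3 (0.0669) or 4 (0.0836) or low-glucose replicate 2 (0.0931) or 4 (0.0899). The PSMC3 call was also lost with the replicate block (limma adjusted p 0.0511), under quantile scaling (0.145), after the length correction (log2 fold change 0.02, limma adjusted p 0.650) and with a GC correction (0.01, limma adjusted p 0.676). PSMC1, PSMC4 and PSMC6 had log2 fold changes between -0.03 and 0.01. PSMC2 overlaps PMPCB on the same strand and SLC26A5 on the other, PSMC5 overlaps FTSJ3, and PSMC1 has 13 named pseudogenes, so reads of these could be split or shared.

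The scaffold subunits of the base, PSMD2 and PSMD1, which hold the ATPase ring and bind shuttle factors, were among the 3 genes that fell in MDA-MB-231. PSMD2 (ENSG00000175166, chromosome 3, 184016986 to 184026838 on GRCh37) had 12263, 11895, 12094 and 11487 normalized reads in low and 11245, 10823, 10457 and 10959 in high glucose. The groups did not overlap, and the level fell by 8.92% (log2 fold change -0.13, SE 0.03, limma adjusted p 0.00509). For MDA-MB-468 PSMD2 had 4005, 4016, 4142 and 3995 in low and 4081, 3901, 4232 and 4196 in high glucose (log2 fold change 0.02, limma adjusted p 0.599). The groups overlapped there, and the responses differed by 0.16 (SE 0.04, limma adjusted p 0.00814), a call lost under quantile scaling (0.140). PSMD1 had 2582, 2796, 2580 and 2706 in low and 2443, 2398, 2412 and 2482 in high glucose in MDA-MB-231, without overlap (log2 fold change -0.13, SE 0.03, limma adjusted p 0.0166). It was no longer called without low-glucose replicate 2 (0.0637) or high-glucose replicate 2 (0.0521), or under quantile scaling (0.0610). In MDA-MB-468 PSMD1 was at -0.08 (limma adjusted p 0.0885), at 0.0401 without low-glucose replicate 1, 0.0374 under quantile scaling and 0.0309 after the length correction. The ubiquitin receptors PSMD4 and ADRM1 were not called in either line, with log2 fold changes between -0.05 and 0.03. ADRM1 was called as lower in MDA-MB-468 with a GC correction (-0.14, limma adjusted p 0.00259) and after the length correction (-0.12, limma adjusted p 0.0168).

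The lid held the largest response of all 42 genes. PSMD3 (ENSG00000108344, chromosome 17, 38137060 to 38154212 on GRCh37), a structural lid subunit, had 1333, 1285, 1322 and 1326 normalized reads in low and 2072, 2010, 2141 and 2206 in high glucose in MDA-MB-468. Every high-glucose library was far above every low-glucose one, with a rise of 59.9% (log2 fold change 0.68, SE 0.04, limma adjusted p 4.83e-10). For MDA-MB-231 it had 3525, 3397, 3478 and 3235 in low and 3532, 3455, 3332 and 3508 in high glucose, and the groups overlapped (log2 fold change 0.02, 95% interval -0.05 to 0.09). The responses differed by 0.66 (SE 0.05, limma adjusted p 2.62e-08). Over the alternatives the MDA-MB-468 response ran from 0.60 to 0.70, and the level in high-glucose MDA-MB-468 was still below that of MDA-MB-231 in every library. PSMD8 rose from between 3606 and 3890 to between 4135 and 4271 (log2 fold change 0.16, SE 0.03, limma adjusted p 0.000545); its difference between lines (0.13, limma adjusted p 0.0242) was lost with the replicate block (0.0606), under quantile scaling (0.468) and without low-glucose replicate 2 of MDA-MB-231 (0.0543) or low-glucose replicate 4 of MDA-MB-468 (0.0520).

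Smaller lid changes went both ways in MDA-MB-468. PSMD13 rose by 0.13 (limma adjusted p 0.0262), with 1594 to 1765 normalized reads in low and 1698 to 1936 in high glucose, which overlap. It was not called without high-glucose replicate 1 (0.0563), 3 (0.0534) or 4 (0.0894) or low-glucose replicate 2 (0.0718) or 4 (0.0865), with a GC correction (0.0598) or after the length correction (0.173). PSMD11 fell by 0.10 (limma adjusted p 0.0415), with 1589 to 1750 in low and 1513 to 1622 in high glucose. This call was lost without low-glucose replicate 1 (0.109), 2 (0.0649) or 4 (0.120) or high-glucose replicate 3 (0.125) or 4 (0.0826). PSMD12 also fell by 0.10 (limma adjusted p 0.0450), from between 1383 and 1443 to between 1234 and 1373. That call was lost without any low-glucose replicate (1, 0.0604; 2, 0.103; 3, 0.0636; 4, 0.0797) and without high-glucose replicate 3 (0.106) or 4 (0.149), in DESeq2 (0.0529), with the replicate block (0.0539) and after the length correction (0.0639). With a GC correction the PSMD12 log2 fold change was -0.03 (limma adjusted p 0.459). PSMD14, the deubiquitinase of the lid, and its partner PSMD7 were not called (-0.08, limma adjusted p 0.130, and -0.02, limma adjusted p 0.575), nor was PSMD6 (0.05, limma adjusted p 0.406).

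The chaperones that assemble the base, PSMD5, PSMD9 and PSMD10, are counted with the subunits by name but leave the finished particle. PSMD10, also called gankyrin, rose in MDA-MB-468 from between 1626 and 1793 to between 1836 and 1971 normalized reads (log2 fold change 0.15, SE 0.04, limma adjusted p 0.00643), a call lost after the length correction (0.08, limma adjusted p 0.101). PSMD5 fell from between 1029 and 1113 to between 972 and 1024 (log2 fold change -0.12, SE 0.04, limma adjusted p 0.0176). It was no longer called without low-glucose replicate 3 (0.0520) or with a GC correction (0.103). PSMD9 was not called (log2 fold change -0.05, limma adjusted p 0.493).

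Among the activators, PSME4 (PA200, a large single-chain activator found mostly in the nucleus) fell in both lines, and the PA28 subunits PSME1, PSME2 and PSME3 were called in neither. PSME4 (ENSG00000068878, chromosome 2, 54091206 to 54198130 on GRCh37) had 3508, 3604, 3580 and 3566 normalized reads in low and 3198, 3318, 3168 and 3074 in high glucose in MDA-MB-468. The groups did not overlap (log2 fold change -0.16, SE 0.03, limma adjusted p 0.000396). For MDA-MB-231 it had 2387, 2427, 2463 and 2671 in low and 2216, 2329, 2298 and 2224 in high glucose (log2 fold change -0.13, SE 0.04, limma adjusted p 0.0262). Again no high-glucose library reached the low-glucose range, and the responses of the lines differed by -0.03 (95% interval -0.13 to 0.07). In MDA-MB-231 the call was lost with the replicate block (0.0592), after the length correction (0.0852), under quantile scaling (0.0924) and without high-glucose replicate 1 (0.0802) or 4 (0.0738). PSME4 has one of the longest transcripts of the set, at 7250 nucleotides, and its response in MDA-MB-468 was -0.09 after the length correction (limma adjusted p 0.00603).

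PSME1 and PSME2, which form the interferon-inducible PA28 ring, had log2 fold changes of 0.08 (95% interval -0.01 to 0.17) and 0.08 (-0.02 to 0.17) in MDA-MB-231. In MDA-MB-468 they were at 0.01 (-0.08 to 0.09) and -0.01 (-0.09 to 0.07). Their glucose groups overlapped in both lines. After the length correction both were called as lower in MDA-MB-468 (-0.09, limma adjusted p 0.0408, and -0.11, limma adjusted p 0.0149), so the direction of PSME1 turned. PSMF1 (PI31), which binds the core and was named for inhibiting it in vitro, rose in MDA-MB-468 from between 2556 and 2721 to between 2876 and 2946 (log2 fold change 0.13, SE 0.03, limma adjusted p 0.0023). It has the longest transcript of the set (8154 nucleotides), and it was called in all 21 alternatives. On the opposite strand, TMEM74B overlaps PSMF1, ACYP2 overlaps PSME4 and HTR2B overlaps PSMD1. On the same strand, ENSG00000274269 overlaps PSMF1. Reads of these pairs may be shared, and PSME2 has 6 named pseudogenes.

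The third question was how the proteasome genes differed between the lines in 5 mM glucose. MDA-MB-468 had lower levels of all constitutive catalytic subunits and higher levels of all immunoproteasome subunits than MDA-MB-231. For PSMB10 the difference was small and was lost under some alternatives, given below. The scaffold subunit PSMD2 was 0.339 times as high in MDA-MB-468 as in MDA-MB-231. Of the 42 genes, 19 were higher and 22 lower in MDA-MB-468, against 45.0% and 40.4% of all genes tested (85.4% in either direction), and PSMD4 was not called (-0.07, 95% interval -0.14 to 0.01). PSMD4 was called as lower in MDA-MB-468 in edgeR (adjusted p 0.0152) and DESeq2 (0.021) and under TMM scaling (limma adjusted p 0.0177). It was also called as lower with a GC correction (-0.11, limma adjusted p 0.00278) and after the length correction (-0.28, limma adjusted p 1.6e-07). The same held without low-glucose replicate 4 of MDA-MB-231 (-0.09, limma adjusted p 0.0287). Under quantile scaling the direction of PSMD4 turned (0.08, limma adjusted p 0.0404). The groups did not overlap in 41 genes, against 80.5% of all genes. The median absolute difference was 0.50 on the log2 scale, beside 0.94 over all genes, which again were not matched for level. The low-glucose MDA-MB-468 libraries are also the controls of the glucose comparison above, so values in both are given side by side and no relation between them is drawn.

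Among the catalytic subunits, the log2 difference (MDA-MB-468 minus MDA-MB-231) was -1.08 for PSMB6 (SE 0.05, limma adjusted p 1.5e-12), -0.74 for PSMB7 (SE 0.03, limma adjusted p 8.65e-13) and -0.31 for PSMB5 (SE 0.06, limma adjusted p 0.000151). PSMB8 was 2.82-fold higher (log2 difference 1.50, SE 0.04, limma adjusted p 1.06e-15), with 2085 to 2193 normalized reads against 724 to 802. PSMB9 was 2.14-fold higher (1.10, SE 0.10, limma adjusted p 1.38e-08), with 256 to 288 against 110 to 145. No library of one line reached the range of the other for these genes. PSMB10 was higher by 0.26 (limma adjusted p 0.0237), a small difference that was lost without low-glucose replicate 4 of MDA-MB-231 (0.104) or low-glucose replicate 1 of MDA-MB-468 (0.0918) and was -0.02 after the length correction. PSME1 was lower (-0.27, limma adjusted p 2.1e-05) and PSME2 higher (0.22, limma adjusted p 8.23e-05) in MDA-MB-468; after the length correction PSME2 was lower (-0.10).

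The largest differences toward MDA-MB-231 were in PSMD2 (-1.56, SE 0.03, limma adjusted p 3e-18), PSMD3 (-1.37, SE 0.03, limma adjusted p 7.93e-17), PSMB6 and PSMD9 (-1.02, SE 0.05, limma adjusted p 6.15e-13). Toward MDA-MB-468, after PSMB8 and PSMB9, they were in PSMA3 (0.80, SE 0.04, limma adjusted p 7.43e-12) and PSMD7 (0.78, SE 0.03, limma adjusted p 9.58e-14). Subunits of the same ring therefore went opposite ways: PSMA2, PSMA3, PSMA4 and PSMA5 were higher in MDA-MB-468 and PSMA1, PSMA6 and PSMA7 lower. In the base ATPases, PSMC2, PSMC3 and PSMC4 were higher and PSMC1, PSMC5 and PSMC6 lower. PSMC2 was not called with a GC correction (0.05, limma adjusted p 0.226) and PSMC3 not after the length correction (0.01, limma adjusted p 0.769). Beside the line difference, the glucose response in MDA-MB-468 was 0.02 for PSMD2, 0.68 for PSMD3, 0.37 for PSMB6, -0.05 for PSMD9, -0.04 for PSMA3 and -0.02 for PSMD7.

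**Figure D5:**
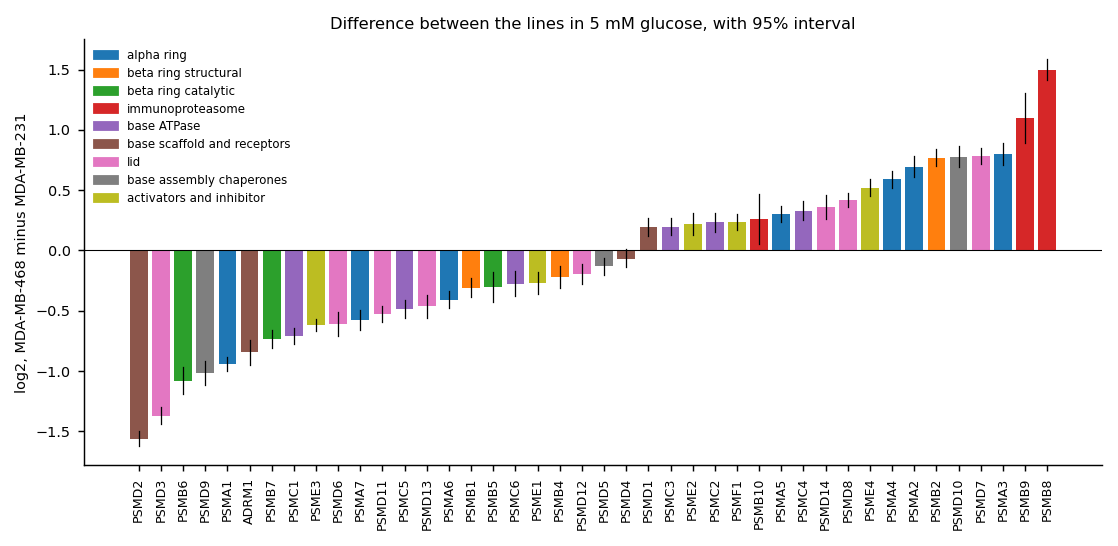
Bars give the difference between the lines in 5 mM glucose (MDA-MB-468 minus MDA-MB-231, y axis, log2 scale) for the 42 proteasome genes, ordered along the x axis and colored by role, and black lines the 95% intervals from limma on n = 4 against 4 libraries. PSMB8 (1.50) and PSMB9 (1.10) are at the high end and PSMD2 (-1.56) and PSMD3 (-1.37) at the low end, with PSMD4 the 1 gene whose interval spans 0.

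Levels of different subunits were compared only per kilobase of transcript, which rests on the length of the annotated canonical transcript. In low-glucose MDA-MB-231 the highest was PSMD2 with 4097 ± 115 normalized reads per kilobase (SD, n = 4), followed by PSMA7 (3596 ± 77.5) and PSMB4 (3269 ± 131), whose ranges did not overlap each other. PSMB9 was the lowest (125 ± 14.9), below PSMF1 (277 ± 12.2). In low-glucose MDA-MB-468 the highest was PSMB4 (2808 ± 123), and PSMD8 (2488 ± 84.9) and PSMA7 (2415 ± 91.8) came next with overlapping ranges. PSMD9 (219 ± 10.9) and PSMB9 (268 ± 15.6) were the lowest there. In high glucose PSMD8 (2771 ± 40.8), PSMB4 (2707 ± 170) and PSMA7 (2591 ± 150) were highest in MDA-MB-468, and of these PSMD8 and PSMB4 overlapped, as did PSMB4 and PSMA7. In high-glucose MDA-MB-231 PSMA7 (3768 ± 173) and PSMD2 (3732 ± 112) overlapped at the top.

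Genes that act with the proteasome were taken from lists of 42 genes in all. In MDA-MB-231, 4 of them rose and none fell, beside the 5.71% and 9.37% of all genes given above. The rises reported here were in UBB (log2 fold change 0.10, limma adjusted p 0.0279), which encodes ubiquitin, in the assembly chaperone PSMG3 (0.19, limma adjusted p 0.0319) and in STAT2 (0.17, limma adjusted p 0.0134). PSMG3 was lost without low-glucose replicate 1 (limma adjusted p 0.0538), 2 (0.0702) or 3 (0.0776) or high-glucose replicate 2 (0.0997) or 4 (0.0995), in DESeq2 (0.0553), with the replicate block (0.0601) and after the length correction (0.0686). STAT2 was lost without low-glucose replicate 1 (0.0537). UBB, which lies outside the rule for named genes and was added after its values were seen, was lost without high-glucose replicate 1 (0.0828), 2 (0.0881) or 3 (0.0557) or low-glucose replicate 3 (0.0565), in the fit of all 4 groups (0.0522) and after the length correction (0.135). In MDA-MB-468, 10 rose and 12 fell, against 24.9% and 22.7% of all genes. NFE2L1, the factor known to raise proteasome genes, had 8041 ± 253 (SD, n = 4) normalized reads in low and 8216 ± 188 in high glucose in MDA-MB-231 (0.03, limma adjusted p 0.557) and 3253 ± 53.9 and 3117 ± 97.3 in MDA-MB-468 (-0.06, limma adjusted p 0.118). It was thus not called in either line as tested, and it was called as lower in MDA-MB-468 under quantile scaling (-0.09, limma adjusted p 0.0251), with a GC correction (-0.12, limma adjusted p 0.000522) and without high-glucose replicate 4 (-0.08, limma adjusted p 0.0486). NFE2L2, the factor of the antioxidant response, rose in MDA-MB-468 from 2528 ± 43.6 to 2771 ± 62.7 (0.13, limma adjusted p 0.00205) and was at 0.06 in MDA-MB-231 (limma adjusted p 0.465).

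SEM1, a small lid subunit whose symbol falls outside the naming rule, had 501, 526, 459 and 497 normalized reads in low and 683, 647, 712 and 693 in high glucose in MDA-MB-468. It rose without overlap (log2 fold change 0.46, limma adjusted p 2.2e-06), and in MDA-MB-231 it was at -0.09 (limma adjusted p 0.294), with a difference between the lines of 0.56 (limma adjusted p 2.32e-05). Of the 6 genes listed for assembly, 2 rose, 1 fell and 3 were not called in MDA-MB-468. The fall was in PAAF1 (-0.25, limma adjusted p 0.00215), a call lost in the fit of all 4 groups (0.0635). The rises were in the chaperones of core assembly PSMG2 (0.18, limma adjusted p 0.00399) and PSMG3 (0.29, limma adjusted p 0.000185). The glucose groups did not overlap for either, and PSMG2 was not called after the length correction (0.09, limma adjusted p 0.105). RPS27A, which encodes ubiquitin fused to a ribosomal protein, rose as well (0.17, limma adjusted p 0.000229). Among the associated proteins 2 of 13 rose and 5 fell, with UBQLN1 (-0.26, limma adjusted p 1.28e-05) and ZFAND5 (-0.22, limma adjusted p 2.24e-05), which bring substrates to the proteasome, as the lowest. The rises were in SEM1 and in UBQLN4, of the same family as UBQLN1 (0.14, limma adjusted p 0.00191).

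Genes of the interferon pathway that controls the immunoproteasome went both ways in MDA-MB-468. IRF1, a transcription factor that activates PSMB8, PSMB9 and TAP1, had 554, 592, 593 and 612 normalized reads in low and 405, 421, 440 and 417 in high glucose. It fell without overlap (log2 fold change -0.48, limma adjusted p 1.05e-06). TAP1, which carries peptides to MHC class I molecules and starts 487 bases from PSMB9 as shown above, had 1574, 1478, 1610 and 1497 in low and 1204, 1190, 1236 and 1164 in high glucose. TAP1 fell (-0.36, limma adjusted p 1.15e-06), as did TAP2 (-0.36, limma adjusted p 3.61e-06), beside PSMB9 at -0.07 (95% interval -0.24 to 0.09) and PSMB8 at -0.04 (-0.11 to 0.04). The intervals of TAP1 (-0.44 to -0.28) and PSMB9 did not overlap, but the difference between these genes was not tested. Of the 2 chains of the interferon gamma receptor, IFNGR1 fell (-0.26, limma adjusted p 4.68e-06) and IFNGR2 rose (0.40, limma adjusted p 4.65e-06). The kinase JAK2 rose (0.51, limma adjusted p 0.00125), from 79.3 ± 6.72 to 114 ± 9.99 normalized reads (SD, n = 4). In MDA-MB-231 none of IRF1 (0.09), TAP1 (0.07), TAP2 (-0.00), IFNGR1 (0.12, limma adjusted p 0.118), IFNGR2 (-0.01) and JAK2 (-0.06) was called, though IFNGR1 was called as higher in a fit over all 4 groups (limma adjusted p 0.0141) and with a GC correction (0.0351). The response of each differed between the lines: by -0.57 for IRF1 (limma adjusted p 2.25e-06), -0.44 for TAP1 (1.73e-05), -0.36 for TAP2 (0.000105), -0.38 for IFNGR1 (3.42e-06), 0.41 for IFNGR2 (6.53e-06) and 0.57 for JAK2 (limma adjusted p 0.00411).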

How the data were processed

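RNA was sequenced from 16 libraries, 4 for each combination of cell line and glucose level. Per the study's methods, reads were trimmed, aligned with TopHat and counted on Ensembl genes; the methods name build hg19, while the submitters' processing notes name hg38 and edgeR. The counting program and its use of strand are not given in the sources used here. The deposited values are a signal: the authors divided the reads of each gene by 1 size factor per library. Whole reads were recovered for 100% of values, the largest deviation being 7.5e-05 reads. Gene symbols, coordinates and transcript lengths came from GENCODE v44 lifted to GRCh37, with 16633 of 18332 IDs matched to a symbol and 17418 to a length.

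Genes with at least 0.5 CPM in at least 2 samples of a line were tested with limma 3.58.1 (R 4.3.3) on log2(value + 1) within that line, and the line contrast and the difference of responses came from a fit of all 4 groups. Fold changes are therefore on the log2(value + 1) scale, and p-values were Benjamini-Hochberg adjusted over all genes, 14884 in MDA-MB-231, 15757 in MDA-MB-468 and 17115 over both. The alternatives were edgeR 4.0.16 and DESeq2 1.42.0 on recovered reads, pseudocounts of 0.5 and 5, no filter or 1 CPM in 4 samples, TMM and quantile scaling, a replicate block, corrections for transcript length and GC content, the fit of all 4 groups, and each library left out. Ratios were compared with exact permutation tests. Between replicates, chi-square per gene was 2.025 to 5.2, so no library was a copy of another. Scripts were tested on simulated data.

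The members and lists were chosen with earlier results of these data known. Named were the catalytic and immunoproteasome subunits, PSME1 and PSME2; per line the 4 largest rises and falls past the threshold; the 3 largest differences of response and the 4 largest line differences each way; and, of related lists, the 3 largest rises and falls per line with NFE2L1 and NFE2L2. Other called members were added so that every member is accounted for, and other related genes after their values were seen. Some results of the related lists are not reported here.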

Additional observations from a re-analysis of the deposited data

Results flagged for a closer look

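In 20 named proteasome genes, 80 groups of 4 libraries were checked for a single library far from the other 3, which chance gives in about 1 of 20 groups, and 2 were found. PSMD2 had 4142 normalized reads in low-glucose MDA-MB-468 replicate 3, with the others between 3995 and 4016. PSMD9 had 1131 in low-glucose MDA-MB-231 replicate 4, with the others between 1228 and 1235.

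For 8 of the 42 proteasome genes (19.05%) the glucose response differed between the lines by the limma test of the difference itself. Over all genes tested the share was 30.9%, so such a difference was not more frequent among the proteasome genes. Of the 8, 5 were among the 20 named genes, and values are MDA-MB-468 minus MDA-MB-231 on the log2 scale. The difference was 0.66 for PSMD3, 0.46 for PSMA1, 0.31 for PSMB6, 0.26 for PSMB1 and 0.16 for PSMD2.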

How the results depend on the processing

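Quantile scaling changed the counts of called proteasome genes to 1 higher and 1 lower in MDA-MB-231, against 6.90% and 7.48% of all genes. For the difference of responses it gave 5 and 2, against 15.7% and 16.2%. There, a filter of 1 CPM in 4 samples, TMM scaling and a GC correction each gave 1 lower, against 14.1% to 15.6%. The length correction, with and without the replicate block, gave 14 lower in MDA-MB-468, against 24.1% and 24.2% of all genes. Under both, the log2 fold change of PSME1 there was -0.086, and the line differences of PSMB10 and PSME2 were -0.016 and -0.101. The cause was not tested. Leaving out 1 library gave 0 higher and 2 to 3 lower for MDA-MB-231, 10 to 13 and 3 to 5 for MDA-MB-468, 6 to 9 and 0 to 1 for the difference of responses, and 18 to 19 and 22 to 23 between the lines. The 3 lower in MDA-MB-468 came without low-glucose replicate 2, 3 or 4 or high-glucose replicate 4. For these counts with 1 library left out, the shares over all genes are not given here, so they describe the members only. With the replicate block the PSMB9 to PSMB6 log2 ratio in MDA-MB-468 was -0.447 (exact p = 0.125, the smallest that 16 flips can give). This ratio was -0.472 to -0.406 with 1 library left out. Same-numbered libraries did not deviate together (correlations of -0.0400 to 0.0319), so the numbers were not taken as pairs. The replicate block left 0 higher and 2 lower genes for MDA-MB-231 (against 3.84% and 7.07% of all genes). It left 12 and 4 for MDA-MB-468 (against 24.5% and 22.4%), and 7 and 0 for the difference of responses (against 15.6% and 12.3%). Over 62 gene results and 1463 alternative values, 1412 kept their direction and side of the threshold, 32 lost a call, 13 gained one and 6 turned direction. The number of libraries limits the precision most for PSMB9, the gene with the fewest reads, whose 95% interval in MDA-MB-231 ran from 0.00 to 0.47.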
